A study of Homo sapiens with 4 samples.

Results

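The nuclear-encoded genes of oxidative phosphorylation were followed in a ribonucleoprotein immunoprecipitation (RIP) of TIA1. They were chosen by symbol alone: NDUFA, NDUFB, NDUFC, NDUFS and NDUFV for complex I, SDHA to SDHD for complex II, UQCR for complex III, COX4 to COX8 for complex IV and ATP5 for complex V, without the NDUFAF assembly factors. This gave 85 genes of the 18191 that had a probe with an mRNA accession and a symbol, of which 37 belonged to complex I, 4 to complex II, 8 to complex III, 17 to complex IV and 19 to complex V. All RNA came from KYSE180 cells, an established line of esophageal squamous cell carcinoma, with no treatment or altered gene named in the labels. The TIA1 RIP group (n = 2 arrays) was RNA brought down from cytoplasmic lysate with a rabbit anti-TIA1 antibody, and the total RNA group (n = 2 arrays) was labelled as the input. The labels do not say whether that RNA came from cytoplasmic lysate or from whole cells, so a ratio between the groups may include a difference between these fractions. Each sample was labelled with Cy3 and hybridized to its own single-colour Agilent whole human genome array. Nothing in the labels says that the replicates came from separate cultures, so the spread between them may be technical, and the IgG precipitates that the methods describe were not analysed here.

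The respiratory chain passes electrons from NADH (complex I) or succinate (complex II) through ubiquinone to complex III, then by cytochrome c to complex IV, which reduces oxygen. Complexes I, III and IV pump protons across the inner mitochondrial membrane, and complex V, the ATP synthase, uses that gradient to make ATP. Apart from complex II, whose subunits are all nuclear-encoded, the complexes are built from proteins of both genomes, so the mRNAs described here are made in the nucleus and translated in the cytoplasm. TIA1 is an RNA-binding protein with 3 RNA recognition motifs that is known for binding U-rich stretches of mRNA, for controlling translation and splicing, and for entering stress granules. The comparison asked which of these mRNAs made up a larger or smaller share of the TIA1 precipitate than of the total RNA.

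Because TIA1 is known for U-rich sites, the 30-base window with the most T in the 3′ UTR is shown for 3 members on either side and for the ATP synthase subunit c genes. The windows are on GRCh37 (MANE Select transcripts of GENCODE), written 5′ to 3′ on the transcript strand with runs of 3 or more T (U in the mRNA) in capitals. The first set stood higher in the precipitate than in both total RNA arrays.
SDHC: tccttaTTTgTTTagatccTTTTgtaTTTT
SDHD: ttgatgtatgcctcTTTgcctctgcTTTgt
COX7A2L: TTTTTcattgttaaattaaaaTTTTTTTTT
The SDHC window lies on the plus strand at chr1:161332316-161332345 and holds 19 T, the SDHD window on the plus strand at chr11:111965721-111965750 holds 15, and the COX7A2L window on the minus strand at chr2:42578277-42578306 holds 20. The second set stood lower in the precipitate than in both total RNA arrays.
UQCRC1: acttcggctcctctaacctgtgccacaggt
NDUFB7: caccctatggaccagtcaaataaaagcctt
NDUFA13: gccctgtgccctccggccacctggatccct
The UQCRC1 window, at chr3:48636463-48636492 on the minus strand, holds 8 T. The NDUFB7 window, at chr19:14676902-14676931 on the minus strand, and the NDUFA13 window, at chr19:19638936-19638965 on the plus strand, hold 6 each. The third set encodes a single mature protein, subunit c of the ATP synthase ring, with 3 different 3′ UTRs.
ATP5MC1: cattcttggtgctggggtgtgttaagcTTT
ATP5MC2: gtctggttggccccgtgtgttccTTTTcct
ATP5MC3: aTTTTTatgggaattcTTTTatatagtgtt
These lie at chr17:46973178-46973207 on the plus strand, chr12:54059035-54059064 on the minus strand and chr2:176042714-176042743 on the minus strand, and hold 13, 13 and 17 T. Among the 11413 mRNA genes with a 3′ UTR of at least 30 bases, the median best window held 18 T, and 49.3% held at least 19. Of all best windows, 81.2% held at least the 15 T of SDHD, so a window of this kind was ordinary even for the member with the highest ratio among those detected on all arrays. At least 8 T were held by 99.1% of best windows and at least 6 T by 99.8%, so the second set lay at the low end. Longer 3′ UTRs reach higher counts, and the windows shown run from UTRs of 55 bases (NDUFB7) to 2030 bases (ATP5MC3). The members shown are not the 3 with the highest or lowest ratio. NDUFB3 (log2 ratio 1.93, 3′ UTR of 135 bases with 36.3% U) and COX5B (-2.17, 275 bases with 32.4% U) are not shown. The sets therefore do not compare U content between the sides. The windows describe sequence and are not mapped binding sites.

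Signals are log2 values minus the 75th percentile of the array over probes detected on all 4 arrays, and a log2 ratio is the RIP mean minus the total RNA value on that scale. Of the 85 genes, 80 passed the detection filter and were tested (36, 4, 8, 13 and 19 in complexes I to V), and 79 of them were detected on all 4 arrays. COX4I2, COX7A1, COX7B2 and COX8C, the less common or tissue-restricted forms of complex IV subunits, were not well above background on both arrays of either group. NDUFV1, the subunit of complex I that binds NADH and FMN, had a single probe with no usable spot on TIA1 RIP replicate 1. On the other arrays NDUFV1 read 2.92 in RIP replicate 2, 3.997 in total RNA replicate 1 and 5.07 in total RNA replicate 2.

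The arrays were of unequal strength. Between 32.2% and 48.4% of spots were well above background, lowest in total RNA replicate 2, whose 75th percentile signal was 942 against 6484 in total RNA replicate 1 and 13890 and 11044 in the precipitates. Over the 80 members, the SD of the difference between replicates was 0.34 for the RIP arrays and 1.48 for the total RNA arrays, and the signals of the replicates had Pearson correlations of 0.98 and 0.80. No spot was saturated. Of 10 squamous epithelial markers, 9 were detected on both total RNA arrays (KRT5, KRT6A, KRT14, KRT17, TP63, DSG3, SFN, PERP and JUP, with DSC3 detected on one of them), as were 2 of 4 blood cell, 1 of 3 fibroblast and 1 of 3 endothelial markers. Because the total RNA arrays differ this much, ratios on the mean are followed by those against each of them for the members that the results turn on.

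The mRNAs of oxidative phosphorylation stood low in the TIA1 precipitate relative to other mRNAs. Their median log2 ratio was -0.45, against 0.35 for all 11586 mRNA genes tested. Against total RNA replicate 1 the medians were -0.56 for the members and 0.10 for all mRNA genes, and against total RNA replicate 2 they were -0.29 and 0.49. Relative to the median mRNA gene of the same comparison, 66 of the 80 members were lower against the first total RNA array and 56 against the second. Taking each RIP array with each total RNA array gives 4 pairs, which share arrays and are not independent. In all 4 pairs 50 of the 80 members (62.5%) lay below the median mRNA gene, against a background of 21.1% of mRNA genes, and 8 (10%) lay above it, against 20.2%, with 22 on both sides.

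The count of 50 moved with the processing, in alternatives chosen after seeing the data. It was 30 (37.5%, background 20.3%) with normexp background correction, 32 (40%, background 21.2%) with quantile normalization, 37 of 79 (46.8%, background 22.4%) with only probes detected on all arrays, and 29 of 84 (34.5%, background 14.6%) with no detection filter. The share of members was above that of mRNA genes in each of these. NDUFB7, NDUFA13, UQCRC1, UQCR11, COX4I1, COX5B, COX7A2 and ATP5ME lay below the median mRNA gene, and SDHC, SDHD, COX7A2L, NDUFB3 and NDUFB5 above it, in all pairs under all of these alternatives and with each array left out. The remaining 3 of the 8 members above it, NDUFA5, NDUFB6 and NDUFC2, each lost that place or were not tested under at least 1 of them.

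No member passed the test of the group means. limma with Benjamini-Hochberg adjustment called 0 of 16459 mRNA genes and other transcripts in either direction, so 0% was called in the background too. The lowest adjusted p was 0.681 over all of them and 0.71 over the members. At an unadjusted p under 0.05 in limma, 2 members were lower (NDUFB7 and COX5B) and 1 was higher (SDHD). Of all transcripts 3.99% were lower and 1.81% higher, and of the 11586 mRNA genes 251 were lower and 247 higher. The outcome turned on total RNA replicate 1. Without it, limma called 18 members lower (12.2% of all transcripts tested) and 9 higher (20.7%) against total RNA replicate 2 alone, and that fit takes its spread from the RIP arrays only. Leaving out any other single array gave 0 members called.

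**Figure D1:**
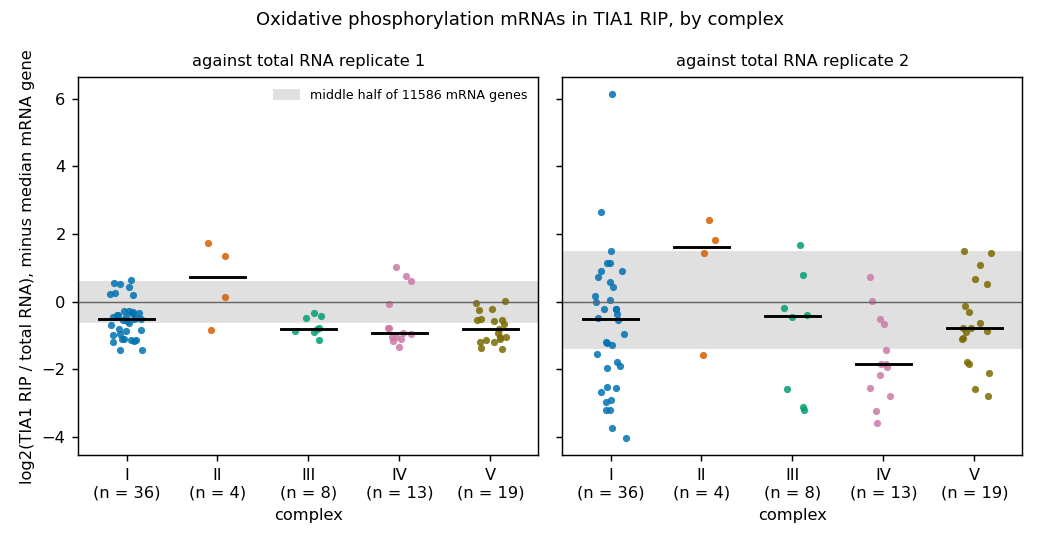
Log2 ratio of the TIA1 RIP mean to each total RNA array, minus that of the median mRNA gene, for the 80 members tested. Each point is a gene, black lines are medians of a complex, and the grey band holds the middle 50% of the 11586 mRNA genes. Medians of complexes I, III, IV and V lie below 0 in both panels and that of complex II above it. The point above 6 is NDUFA5, which was not well above background on total RNA replicate 2.

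By complex, the median log2 ratio relative to the median mRNA gene was -0.55 for complex I, 1.13 for complex II, -0.60 for complex III, -1.16 for complex IV and -0.96 for complex V. Against total RNA replicate 1 these were -0.51, 0.74, -0.80, -0.93 and -0.82, and against total RNA replicate 2 they were -0.51, 1.62, -0.43, -1.84 and -0.78. Complex II, with its 4 genes, was therefore on the other side of the median mRNA gene from the remaining complexes against both arrays. Members are not replicates, and no test was made between complexes.

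Complex II, succinate dehydrogenase, oxidizes succinate to fumarate in the citric acid cycle and passes the electrons to ubiquinone. Its membrane anchors SDHC and SDHD stood higher in the precipitate, and its FAD-bearing catalytic subunit SDHA stood lower. SDHD (chromosome 11, 111957548 to 111990739 on GRCh37) read -0.02 and 0.09 in the precipitates and -1.78 and -2.85 in total RNA. The groups did not overlap, and the log2 ratio was 2.35 (SE 0.78, n = 2 per group, limma adjusted p = 0.71), or 1.82 and 2.89 against total RNA replicates 1 and 2. With 2 arrays per group, non-overlap alone is not rare, here or for the genes below. A near measure is the share of mRNA genes above (20.2%) or below (21.1%) the median mRNA gene in all 4 pairs. SDHC (chromosome 1, 161284171 to 161332996) read -0.20 and -0.19 in the precipitates and -1.64 and -2.11 in total RNA. Its log2 ratio of 1.68 (SE 0.73, limma adjusted p = 0.71) was again from groups that did not overlap, and its RIP replicates differed by far less than the groups did.

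SDHB, the iron-sulfur subunit that carries electrons from the flavin to the anchors, read 1.39 and 0.99 in the precipitates and 0.97 and -1.12 in total RNA. RIP replicate 2 and total RNA replicate 1 were nearly level for SDHB, so its log2 ratio of 1.26 (SE 0.93) rested on the other total RNA array, with 0.22 against the first and 2.31 against the second. SDHA (chromosome 5, 218418 to 257197) read -0.84 and -0.14 in the precipitates and 0.24 and 0.60 in total RNA. Its groups did not overlap in the other direction, with a log2 ratio of -0.91 (SE 0.75, limma adjusted p = 0.748). SDHA and SDHC or SDHD thus stood on opposite sides of the median mRNA gene in all 4 pairs, and did so in every alternative of background, scaling, filter and probe choice run, and with each array left out.

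The probes of each gene bore this out one by one. The 3 SDHD probes had log2 ratios of 1.75 to 1.90 against total RNA replicate 1 and 1.96 to 3.38 against total RNA replicate 2. The 3 SDHC probes had 0.60 to 2.08 and 1.76 to 2.19. The 4 SDHA probes had -1.15 to -0.34 and -1.88 to -0.35. Probes of a gene share the RNA of an array, so they are no further replicates of the condition.

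**Figure D2:**
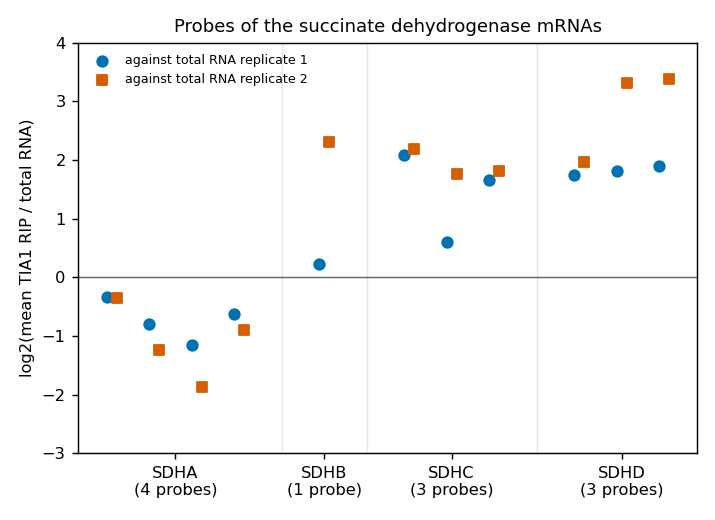
Log2 ratio of the TIA1 RIP mean to total RNA replicate 1 (circles) and replicate 2 (squares) for each probe of SDHA, SDHB, SDHC and SDHD, on the scale of the 75th percentile. All SDHC and SDHD points lie above 0, all SDHA points lie below it, and the single SDHB probe lies at 0.22 and 2.31.

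Complex I, NADH dehydrogenase, is the largest of the complexes, with core subunits that bind the flavin and the iron-sulfur clusters and many accessory subunits around them. Of its 36 members tested, 23 lay below the median mRNA gene in all 4 pairs and 5 above it. The core subunits (6 tested, 4 of them below in all 4 pairs) had a median log2 ratio of -0.44 and the accessory subunits (30 tested, 19 below) had -0.16, against 0.35 for all mRNA genes. Against total RNA replicate 1 the core and accessory medians were -0.38 and -0.44, and against replicate 2 they were -0.39 and 0.05. Their order thus depended on the total RNA array. NDUFS1, the largest iron-sulfur core subunit, read 0.34 and 0.37 in the precipitates and 0.72 and -1.03 in total RNA, so that the RIP arrays lay between the total RNA arrays.

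The lowest members of complex I were accessory subunits. NDUFA13, also known as GRIM-19 and described as a partner of STAT3, read 0.64 and 1.43 in the precipitates and 2.13 and 4.58 in total RNA. Its groups did not overlap, but the total RNA arrays lay further from each other than either RIP array from total RNA replicate 1, and the log2 ratio was -2.32 (SE 1.01, limma adjusted p = 0.71). NDUFB7 read -0.50 and -0.45 in the precipitates and 0.85 and 2.76 in total RNA, a log2 ratio of -2.28 (SE 0.89, limma adjusted p = 0.71). For NDUFB7 the ratio was -1.33 against total RNA replicate 1 and -3.24 against replicate 2, the same side both times.

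At the other end, NDUFB3, an accessory subunit of the membrane arm, read 2.70 and 2.41 in the precipitates and 1.82 and -0.57 in total RNA. Its log2 ratio was 1.93 (SE 0.98, limma adjusted p = 0.71), and both RIP arrays lay above both total RNA arrays. NDUFA5, of the matrix arm, read 0.10 and -0.09 in the precipitates and -0.35 in total RNA replicate 1, and it was not well above background on total RNA replicate 2. Against total RNA replicate 2 NDUFA5 was at least 29.4-fold higher, taking the lowest detected signal of that array as the bound, whereas against replicate 1 the log2 ratio was 0.36. The NDUFA5 transcript has a GC content of 34.6%. All mRNA genes under 45% GC had median log2 ratios of 0.16 against replicate 1 and 2.31 against replicate 2. The remaining complex I members above the median mRNA gene in all 4 pairs were NDUFB5, NDUFB6 and NDUFC2, with log2 ratios of 0.92, 0.97 and 1.25. Against total RNA replicates 1 and 2 these were 0.61 and 1.23 for NDUFB5, 0.31 and 1.62 for NDUFB6, and 0.52 and 1.97 for NDUFC2. The NDUFC2 value is uncertain, because one of its probes gave 0.17 and 0.05 against the total RNA arrays and the other, not detected on total RNA replicate 2, gave 0.87 against replicate 1.

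**Figure D3:**
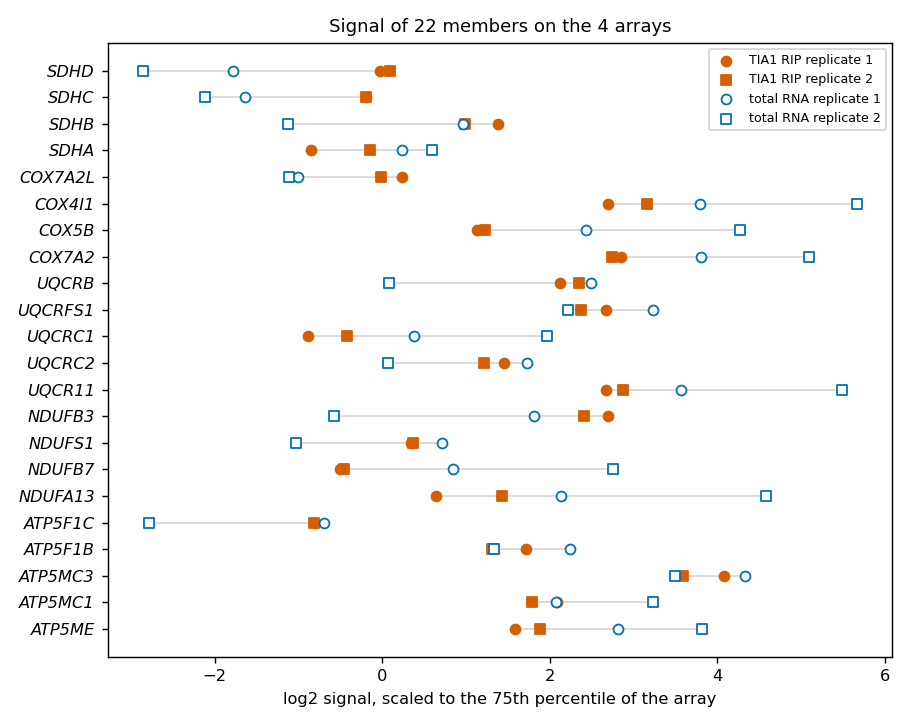
Log2 signal of 22 members on each array, minus the 75th percentile of that array, with filled symbols for TIA1 RIP and open symbols for total RNA, circles for replicate 1 and squares for replicate 2. For SDHD, SDHC and COX7A2L both filled symbols lie to the right of both open ones, and for COX4I1, COX5B, NDUFB7 and UQCRC1 they lie to the left. The open symbols of a gene lie further apart than the filled ones for most genes shown. Signals of different genes come from different probes and are not comparable with each other.

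Complex III, ubiquinol-cytochrome c reductase, had 6 of its 8 members below the median mRNA gene in all 4 pairs and none above it. Among its scaffold or core proteins, UQCRC1 read -0.88 and -0.42 in the precipitates and 0.38 and 1.97 in total RNA, a log2 ratio of -1.83 (SE 0.85, limma adjusted p = 0.71) from groups that did not overlap. UQCRC2, the other core protein, read 1.46 and 1.22 in the precipitates and 1.73 and 0.07 in total RNA. The RIP arrays thus lay between the total RNA arrays for UQCRC2, with log2 ratios of -0.39 against replicate 1 and 1.27 against replicate 2. UQCRFS1, the Rieske iron-sulfur protein, had log2 ratios of -0.70 and 0.30 against the total RNA arrays, and UQCRB, a ubiquinone-binding subunit, -0.25 and 2.15. UQCR11 was the second lowest of the complex, with a log2 ratio of -1.75 (SE 0.90), from -0.80 and -2.71. The value of UQCRH, -0.15, is a mean over its probes and is uncertain, since the near-identical UQCRHL may share them.

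Complex IV, cytochrome c oxidase, gave the lowest median, and 8 of its 13 members tested lay below the median mRNA gene in all 4 pairs. COX5B, a nuclear subunit that binds zinc, read 1.14 and 1.23 in the precipitates and 2.44 and 4.27 in total RNA. Its log2 ratio was -2.17 (SE 0.88, limma adjusted p = 0.71), and both RIP arrays lay well below the nearer total RNA array. COX4I1, the form of subunit 4 found in most tissues, read 2.69 and 3.16 in the precipitates and 3.80 and 5.67 in total RNA, with a log2 ratio of -1.81 (SE 0.90), from -0.87 and -2.74. COX5A had a log2 ratio of -0.94 (SE 0.72) that was the same against either total RNA array, and COX6C had -0.94 against replicate 1 and -0.03 against replicate 2, with a mean of -0.49 (SE 0.77) that turned to 0.13 with quantile normalization.

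COX7A2L (chromosome 2, 42560686 to 42652228), also called SCAF1 and known for joining complexes III and IV into a supercomplex, was the exception of complex IV. It read 0.24 and -0.02 in the precipitates and -1.01 and -1.11 in total RNA, and here the total RNA arrays were closer to each other than the RIP arrays were. The log2 ratio was 1.17 (SE 0.73, limma adjusted p = 0.71), with 1.12 against total RNA replicate 1 and 1.22 against replicate 2, so it depended little on the choice of input array. Its relative COX7A2, a structural subunit of the oxidase itself, read 2.85 and 2.75 in the precipitates and 3.81 and 5.10 in total RNA, a log2 ratio of -1.66 (SE 0.81). The pair stood on opposite sides of the median mRNA gene in all 4 pairs.

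The other paralogues of complex IV gave mixed values. COX6A1 and COX6B1, the forms found in most tissues, had log2 ratios of -1.06 and -1.57 and lay below the median mRNA gene in all 4 pairs, except that COX6A1 had no single side with quantile normalization (log2 ratio 0.24). Against total RNA replicates 1 and 2 COX6A1 had -0.69 and -1.43, and COX6B1 had -1.07 and -2.07. COX6A2, the form of heart and skeletal muscle, and COX6B2, the testis form, had 0.85 and 0.70 against total RNA replicate 1 and -1.35 and -1.35 against replicate 2, so neither had a direction. COX6A2 was dim, at percentile 6.6 of mean signal among mRNA genes. COX6B2 is the mean of a dim probe (1.09 and -0.41, not detected on total RNA replicate 2) and a much brighter one (0.31 and -2.30). COX7B and COX8A also changed side between the total RNA arrays, with log2 ratios of -0.83 and 0.51 for COX7B and 0.04 and -1.67 for COX8A. COXFA4, formerly NDUFA4 and since reassigned from complex I to complex IV, is outside the symbol rule and had a log2 ratio of -0.38, and its hypoxia-responsive relative COXFA4L2 had 1.12, with 2.32 and -0.07 against the total RNA arrays. COXFA4L2 read -3.44 and -0.99 in the precipitates and -4.53 and -2.14 in total RNA. Its RIP arrays thus lay far apart too (SD 1.73), and their mean is a poor summary.

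Complex V, the ATP synthase, had 12 of 19 members below the median mRNA gene in all 4 pairs and none above it. In the catalytic head, ATP5F1A and ATP5F1B (the alpha and beta subunits) had log2 ratios of -0.49 and -0.27 (0.00095 and 0.014 with quantile normalization). Against replicates 1 and 2 ATP5F1A had -0.84 and -0.15, ATP5F1B had -0.72 and 0.18, and ATP5F1C, the gamma subunit of the rotor, had -0.12 and 1.98. ATP5F1D, the delta subunit, read 0.18 and 0.17 in the precipitates and 0.75 and 2.46 in total RNA, a log2 ratio of -1.43 (SE 0.86). The lowest of the complex was ATP5ME, the small membrane subunit e, at 1.59 and 1.89 in the precipitates and 2.82 and 3.82 in total RNA (log2 ratio -1.58, SE 0.78). The highest after ATP5F1C was ATP5MJ, a small membrane subunit, with 0.80, from 0.05 and 1.56 against the total RNA arrays. ATP5IF1, the inhibitor that stops the enzyme from running backwards, had -0.36 on the mean of a pair of probes that were both negative.

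The 3 genes of subunit c, whose 3′ UTR windows are shown above, differ mainly in their leader peptides and UTRs. Against total RNA replicate 1 ATP5MC1, ATP5MC2 and ATP5MC3 had log2 ratios of -0.14, 0.11 and -0.49, and against replicate 2 they had -1.30, -1.37 and 0.35. ATP5MC3 was thus the lowest of them against the first array and the highest against the second. The transcript of ATP5MC3 has a GC content of 38.5%, and those of ATP5MC1 and ATP5MC2 have 55.1% and 54.9%.

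GC content went with the ratio against one total RNA array more than the other. Across the 79 members with a MANE Select transcript, the Pearson correlation of the log2 ratio with GC content was -0.21 against total RNA replicate 1 and -0.75 against replicate 2, and the difference of total RNA replicate 2 minus replicate 1 had 0.81. All 11482 mRNA genes with a transcript gave -0.06, -0.73 and 0.70. These correlations are across genes on shared arrays and describe those arrays. Over the members the T (U) content of the 3′ UTR also went with the ratio against replicate 2 (r = 0.63), and the part of GC content in the ratios was not tested. The 25 members under 45% GC had median log2 ratios of -0.36 and 1.22 against the 2 total RNA arrays, the 38 members of 45 to 55% had -0.75 and -0.52, and the 16 of 55% or more had -0.66 and -2.23.

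Against total RNA replicate 1 all of these medians were below 0, with that of the members under 45% GC the nearest to it, and against replicate 2 they lay much further apart. Within 45 to 55% GC, where the median mRNA gene differed little from that of all genes, 31 of 38 members (81.6%) lay below the median mRNA gene in all 4 pairs, against 21.9% of mRNA genes of that GC content. Under 45% GC it was 7 of 25 (28%) against 4.17%, and at 55% or more 12 of 16 (75%) against 37.3%.

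**Figure D4:**
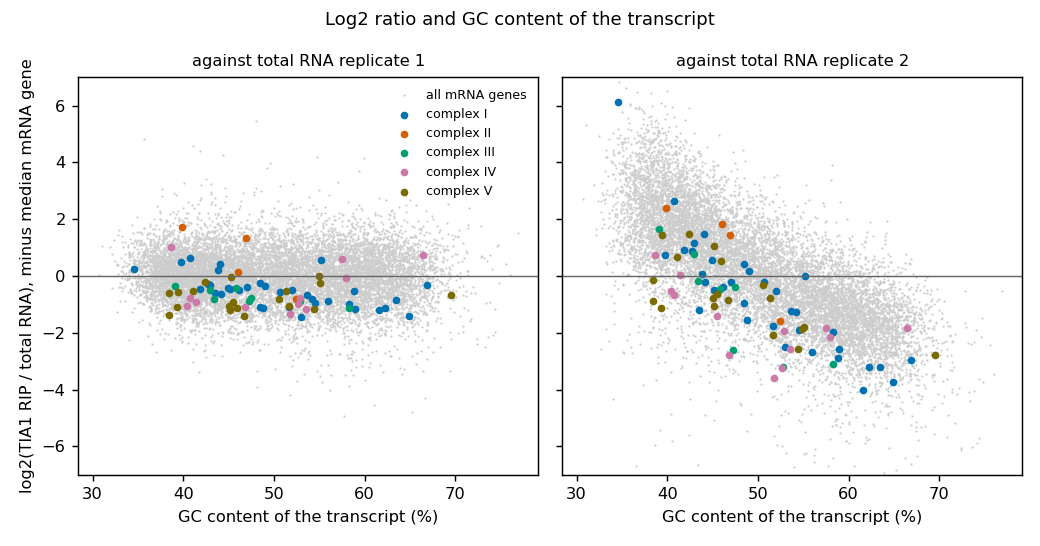
Log2 ratio of the TIA1 RIP mean to each total RNA array, minus that of the median mRNA gene, against the GC content of the MANE Select transcript in percent. Grey points are the 11482 mRNA genes and coloured points the 79 members by complex. The cloud is flat against total RNA replicate 1 (r = -0.06) and falls with GC content against replicate 2 (r = -0.73), and most members lie below its middle in the first panel.

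The members also shared strong signals and short transcripts, which the symbol rule did not use. By mean signal over the arrays, which depends on the probe as well as the mRNA, 71 of the 80 lay in the brightest 25% of mRNA genes. Of these 71, 48 (67.6%) lay below the median mRNA gene in all 4 pairs, against 34.4% of the 2897 mRNA genes in that 25%. Their median log2 ratio was -0.63 against -0.04. Brightness was not matched within it, as the members had a median signal percentile of 95.6 and the mRNA genes 87.5. The next brightest 25% held 8 members, with a median log2 ratio of 1.09 against 0.38 for mRNA genes there. SDHC, SDHD, NDUFA5 and NDUFC2 (50% of them) lay above the median mRNA gene in all 4 pairs, against 22.6%. Below it in all 4 pairs were 25%, against 21.6%. Across 79 members, mean signal correlated with the ratios against total RNA replicates 1 and 2 at r = -0.52 and -0.37. Across mRNA genes r was -0.15 and -0.16. The part of signal was not tested. The median transcript of the members was 756 bases long with a 3′ UTR of 192, against 3104 and 1190 for all mRNA genes. The sequence UUUUU, searched on the transcript strand, occurred in the 3′ UTR of 28 of 79 members (35.4%) and of 78.4% of mRNA genes. Members with it had median log2 ratios of -0.45 and 0.28 against the 2 total RNA arrays, and members without it -0.69 and -0.94. They differed in GC content as well, with medians of 43.2% and 51.7%, and in 3′ UTR length, with 1735 and 132 bases, and the part of each in these ratios was not tested.

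The study measured binding relative to GAPDH, a glycolytic enzyme mRNA taken as not bound. Its target list required a difference of more than 2.5-fold both on the arrays and by sequencing of the precipitates. Its follow-up by PCR was taken relative to an IgG precipitate as well. The counts here use the arrays alone, so they are not counts of targets by the rule of the study. On the arrays GAPDH read 3.29 and 3.57 in the precipitates and 4.48 and 5.88 in total RNA, a log2 ratio of -1.75 (SE 0.82), so it lay below the median mRNA gene in all 4 pairs and a gene may pass GAPDH without passing the median gene. On the group means 40 of 80 members (50%) stood more than 2.5-fold above GAPDH, against a background of 74.1% of mRNA genes. In all 4 pairs 8 did (10%), against 26.2%. The input array decided most of this: with both RIP arrays against total RNA replicate 1, 10 members passed (background 30.7%), and against replicate 2, 50 passed (background 73.8%). With the median mRNA gene as the reference in place of GAPDH, 4 of 80 members passed 2.5-fold (background 12.5%), namely NDUFB3, SDHC, SDHD and NDUFA5, the last through its value on total RNA replicate 2, where it was not well above background. On the means SDHD stood 17.2-fold, NDUFB3 12.9-fold, SDHC 10.8-fold and COX7A2L 7.58-fold above GAPDH, each past 2.5-fold in all 4 pairs. The folds varied widely over the pairs, from 6.90 to 42.8 for SDHD, 2.85 to 58.0 for NDUFB3, 5.13 to 22.7 for SDHC and 3.74 to 15.3 for COX7A2L. NDUFB7, NDUFA13 and COX5B stood at 0.692, 0.675 and 0.747 of GAPDH, and over the pairs NDUFB7 ranged from 0.534 to 0.897, NDUFA13 from 0.393 to 1.16 and COX5B from 0.600 to 0.929. limma on values relative to GAPDH called 0 transcripts, with a lowest adjusted p of 0.202.

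Other genes of the pathway were listed from their roles: assembly factors, cytochromes c and c1 and regulators of mitochondrial genes. Cytochrome c1 (CYC1) is a subunit of complex III that the symbol rule does not take, so it is counted in this list. It had a log2 ratio of -0.59, from -0.03 and -1.16, and lay below the median mRNA gene in all 4 pairs. Of the 61 listed, 56 were tested and limma called 0 of them. At an unadjusted p under 0.05 only UQCC3, a complex III assembly factor, was lower, with a log2 ratio of -2.16, from -1.38 and -2.94 against the total RNA arrays. The median log2 ratio of the 56 was 0.85, from 0.05 against total RNA replicate 1 and 1.38 against replicate 2. All mRNA genes had 0.35, from 0.10 and 0.49. In all 4 pairs 12 of the 56 lay below the median mRNA gene and 12 above it. Each is 21.4%, against 21.1% of mRNA genes below and 20.2% above.

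Among those above it, SDHAF3, an assembly factor of succinate dehydrogenase, had the highest log2 ratio of the list, 2.42, with 0.76 and 4.08 against the total RNA arrays. COA5 (complex IV assembly) had 2.16, from 0.95 and 3.36, and NUBPL (iron-sulfur delivery to complex I) had 2.02, from 0.55 and 3.48, so total RNA replicate 2 carried most of each. Among those below it, SCO2 and SURF1, both complex IV assembly factors, had -1.58 (from -1.01 and -2.15) and -1.53 (from -0.65 and -2.41). CYCS, cytochrome c itself, had -0.05 against total RNA replicate 1 and 3.96 against replicate 2, and TFAM, which packages mitochondrial DNA and starts its transcription, -0.13 and 2.57, so neither had a direction.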

How the data were processed

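The authors scanned 4 single-colour arrays and deposited Agilent Feature Extraction 10.7 output (hg19 headers), with a fluorescence intensity per spot on a linear scale, after background subtraction, and other columns of flags per spot. They analysed the arrays in GeneSpring and compared them with GAPDH, and the scaling, filter and test are not given in the sources used here. All arrays carry one scan time, so no batch was tested.

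Of 58717 spots other than controls, 299 to 382 per array carried a flag for non-uniform or outlying pixels or populations and were dropped. Spots of a probe were averaged on the log2 scale and the 75th percentile of probes detected on all arrays was subtracted. A probe counted as detected where at least 0.5 of its spots were well above background, and was kept (20099 of 50599) where detected on both arrays of a group. Names of 24546 of 25219 mRNA probes came from RefSeq (a GRCh38 table, names only), and probes of a gene were averaged. limma 3.58.1 (R 4.3.3, lmFit and eBayes, 2-sided, Benjamini-Hochberg, threshold 0.05) was fitted over 16459 transcripts and tested on simulated data. Normexp (offset 50) used the median signal, as no mean signal was present. Tables and figures used Python 3.11.15, pandas 2.3.3 and matplotlib 3.10.9. Only 2 arrays per group limit the precision.

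The members and lists were chosen with earlier results of these data known. Genes named are members called by limma with or without the replicate block, the 2 highest and 2 lowest of each complex detected on all arrays, core subunits, regulators and paralogue sets. NDUFB5, NDUFB6 and the pathway genes given by value were named after their values were seen. A single gene that the rule names is not reported here.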

Additional observations from a re-analysis of the deposited data

How the results depend on the processing

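The replicate numbers of both groups match, but no label says that a number marks a shared preparation. With the replicate block limma called 1 member, NDUFA5 (adjusted p = 0.0072), and no other member's call changed. NDUFA5 was not well above background on total RNA replicate 2 and had a log2 ratio of 0.36 against replicate 1. The block fit called 2.25% of all transcripts lower and 0.875% higher. Of the 11586 mRNA genes it called 106 lower and 133 higher. Same-numbered arrays had a correlation of deviations of 0.45 over 16459 transcripts. Without total RNA replicate 1, limma called 27 members and 28 pathway genes, with 12.2% of all transcripts called lower and 20.7% higher. Over the fits that leave out an array, the counts ran from 0 to 27 for members and 0 to 28 for pathway genes. Members below the median mRNA gene in all pairs numbered 30 with normexp, 32 with quantile normalization, 29 with no detection filter, and 51 to 64 with an array left out. Leaving out an array leaves 2 pairs, in which 28.2% to 44.5% of mRNA genes lay below the median one, so these counts cannot be set beside the 50 of 4 pairs.

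Members past GAPDH numbered 14 with quantile normalization, 22 at 4-fold, 4 with the median mRNA gene as reference, and 12 to 52 with an array left out (12 without total RNA replicate 2). Relative medians for complexes I to V were -0.11, 1.47, -0.25, -0.56 and -0.39 with normexp. With quantile normalization complexes III, IV and V had -0.21, -0.42 and -0.35. With no filter complexes I to IV had -0.10, 1.58, -0.15 and -0.54. Complex II had 1.47 with probes detected on all arrays only, and complex III had -1.07 with the brightest probe of a gene. With an array left out, the medians of complex II ran from 0.74 to 1.62, of complex III from -0.85 to -0.37 and of complex IV from -1.84 to -0.93. The median log2 ratio of all mRNA genes was 0.35, and moved to 0.036 with the percentile over all spots, -0.18 with normexp, -0.10 with no filter and 0.0031 with probes detected on all arrays only.

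Signs turned for some named members, on the 75th percentile scale. With quantile normalization these were ATP5F1A (0.00095), ATP5F1B (0.014), ATP5MC2 (0.34), ATP5MC3 (1.05), COX6A1 (0.24), COX6C (0.13), COX7B (0.31), COX8A (0.65), COXFA4 (0.78), UQCRFS1 (0.34) and UQCRH (0.83), and with normexp ATP5MC3 (0.0067). With an array left out, the log2 ratio changed sign for some members, and the lowest and highest values were -0.72 and 0.18 for ATP5F1B, -0.12 and 1.98 for ATP5F1C, -1.37 and 0.11 for ATP5MC2, -0.49 and 0.35 for ATP5MC3, -1.35 and 0.85 for COX6A2, -1.35 and 0.70 for COX6B2, -0.83 and 0.51 for COX7B, -1.67 and 0.040 for COX8A, -0.10 and 2.35 for COXFA4L2, -0.36 and 1.39 for NDUFS1, -0.25 and 2.15 for UQCRB, -0.39 and 1.27 for UQCRC2, -0.70 and 0.30 for UQCRFS1, and -0.33 and 0.033 for UQCRH. The cause was not tested.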
